A study of Mus musculus with 26 samples.

Results

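The genes described here are 9 genes of antibody-making cells and of the route by which antibody leaves the tissue. Cd79a, Cd79b, Cd22 and Ms4a1 mark B cells. Pou2af1, Mzb1, Jchain and Tnfrsf17 were grouped as genes of plasma cells and the steps towards them, and Pou2af1 is not particular to plasma cells. Pigr encodes the receptor that carries IgA across epithelium. They were taken as named genes, and every probe whose RefSeq identifier belonged to one of them was used, which gave 10 of the 55681 probes on the array, 1 for each gene except Pigr, which had 2. All 9 genes passed the filter on low signal and stand among the 22950 features tested.

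The RNA came from the lungs of MutaMouse mice, whose transgene lets mutations be counted, at about 12 weeks of age per the labels, which do not say at which stage of the study. Multiwalled carbon nanotubes in mouse serum were instilled into the trachea once weekly, 4 times in all, and lungs were collected 56 days after the last instillation. The groups were NM-401 high (128 µg/mouse), NM-401 low (42.7 µg/mouse), Mitsui high (Mitsui XNRi-7, 128 µg/mouse), Mitsui low (Mitsui XNRi-7, 42.7 µg/mouse) and control, with 5 mice each. Whether an amount was given at each instillation or over the whole course is not stated. The labels call the controls vehicle controls in one place and describe olive oil by gavage in another, and they give the sex as female in one place and male in another, so neither is settled. RNA was taken from random sections of the organ. In such bulk samples fewer cells of a type cannot be told apart from less RNA per cell.

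Each animal's RNA carried Cy5 and was hybridised together with a universal mouse reference RNA carrying Cy3. The values below are log2 ratios of lung over reference, so a level says how a gene stands against that reference, and a difference of 1 between groups is a change by a factor of 2. The lung genes Sftpc, Sftpb, Scgb1a1, Ager and Cldn18 were well above background in 25 of 25 animals. The 26 arrays lay on 4 slides. NM-401 high had no array on slide 2, and control animal 2 was the only control there. A gene is called changed where its p-value from limma, adjusted over all features, was under 0.05.

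B cells carry the B cell receptor, an immunoglobulin held in the membrane together with the signalling chains that Cd79a and Cd79b encode. Cd22 encodes an inhibitory co-receptor that damps its signal, and Ms4a1 encodes CD20, a membrane protein of mature B cells that plasma cells lose. A B cell that becomes a plasma cell turns to mass secretion of antibody. Pou2af1 encodes a co-activator that works with octamer-binding proteins at immunoglobulin promoters, Mzb1 an endoplasmic reticulum protein that helps antibody assembly, Jchain the joining chain that links IgA and IgM into polymers, and Tnfrsf17 the receptor BCMA, through which plasma cells receive survival signals. The polymeric immunoglobulin receptor encoded by Pigr binds J chain-containing IgA beneath the epithelium and releases it into the lumen, in the airways as in the gut.

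The promoters of 3 genes with a called change are shown here, and that of the co-activator gene Pou2af1, which had none, because antibody-secretion genes are known to share control elements. None is shown for Mzb1. The sequences are from RefSeq (GRCm38.p6), run 5′ to 3′ on the gene's own strand from 250 bases before to 50 after the start, and matched 6 of the 9 genes in a form that can be printed. Capitals mark matches to any of 4 motifs searched on both strands.
Jchain, chr5:88527848-88528147, minus strand: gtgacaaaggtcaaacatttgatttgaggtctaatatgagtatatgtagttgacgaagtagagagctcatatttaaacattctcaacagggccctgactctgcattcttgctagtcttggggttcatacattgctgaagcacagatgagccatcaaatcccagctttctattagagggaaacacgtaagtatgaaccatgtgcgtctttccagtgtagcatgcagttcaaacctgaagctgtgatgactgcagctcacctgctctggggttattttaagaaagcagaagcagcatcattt
Tnfrsf17, chr16:11313559-11313858, plus strand: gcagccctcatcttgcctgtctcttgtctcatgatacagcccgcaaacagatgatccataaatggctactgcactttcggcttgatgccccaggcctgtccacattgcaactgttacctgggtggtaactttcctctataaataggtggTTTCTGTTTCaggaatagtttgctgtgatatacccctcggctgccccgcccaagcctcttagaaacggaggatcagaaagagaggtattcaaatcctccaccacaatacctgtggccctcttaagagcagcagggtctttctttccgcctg
Pigr, chr1:130826434-130826733, plus strand: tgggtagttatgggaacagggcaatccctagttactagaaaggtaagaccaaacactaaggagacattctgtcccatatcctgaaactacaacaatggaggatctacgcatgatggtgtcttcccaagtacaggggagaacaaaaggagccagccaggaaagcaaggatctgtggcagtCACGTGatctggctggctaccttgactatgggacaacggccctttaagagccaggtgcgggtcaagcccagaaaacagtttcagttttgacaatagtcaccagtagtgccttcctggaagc
Pou2af1, chr9:51213440-51213739, plus strand: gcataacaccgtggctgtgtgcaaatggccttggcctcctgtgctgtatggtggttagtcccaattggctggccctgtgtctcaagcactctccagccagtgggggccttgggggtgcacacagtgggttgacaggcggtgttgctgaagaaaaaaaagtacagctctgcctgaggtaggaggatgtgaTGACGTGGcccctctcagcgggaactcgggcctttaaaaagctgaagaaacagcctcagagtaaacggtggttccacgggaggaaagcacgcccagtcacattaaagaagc
The motifs were the octamer ATTTGCAT, the interferon regulatory factor pattern (GAAA and GAAA with any 2 bases between them), the unfolded protein response element TGACGTGG and the E-box CACGTG, the last of which was added after the Pigr sequence had been read. No motif overlapped another in these windows. The Tnfrsf17 window lies inside the gene as annotated, which begins at chr16:11313232, and the Cd22 window lies inside its gene too. Tnfrsf17 held TTTCTGTTTC, the interferon regulatory factor pattern on the opposite strand, at -101 to -92 from the start used for its window. Of 32851 mouse promoters of this length, 3.44% hold that pattern. Pou2af1 held TGACGTGG at -61 to -54, a motif found in 0.676% of promoters. Pigr held the E-box at -71 to -66, which 7.15% of promoters hold. The octamer, present in 1.74% of promoters, was in none of the 6 windows, and the Jchain, Cd79a and Cd22 windows held none of the 4 motifs. A match is a string of letters, and binding was not measured.

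Against control, the plasma cell genes Jchain, Tnfrsf17 and Mzb1 rose in lungs given the high dose of NM-401, by 4.75-, 1.54- and 1.41-fold. Jchain was also called higher with NM-401 low and Mitsui high. None of the 4 B cell genes was called in any exposure, and neither was Pou2af1. For Pigr, 1 probe was called higher in all 4 exposures and the other in none. Read with 1 probe per gene, 3 of 9 genes were called higher in NM-401 high, where 18.4% of all features were (34.8% in either direction). The count was 1 of 9 in NM-401 low against a background of 8.95% (16.9% in either direction), 1 of 9 in Mitsui high against 12.7% (23.8%), and 0 of 9 in Mitsui low against 10.6% (21%). Of the features called with loess normalisation, 52.9%, 52.9%, 53.4% and 50.4% were higher in NM-401 high, NM-401 low, Mitsui high and Mitsui low, and with median centring 89.4%, 83.9%, 86.8% and 83.8% of far fewer calls were. No gene of the 9 was called lower, where 16.4%, 7.98%, 11.1% and 10.4% of all features were in NM-401 high, NM-401 low, Mitsui high and Mitsui low. In Mitsui low, 2 of the 9 had an unadjusted p under 0.05, as had 7454 of all features. The median log2 change of the 9 genes was -0.00 in NM-401 high, 0.19 in NM-401 low, 0.14 in Mitsui high and -0.03 in Mitsui low, and that of all features was between -0.0046 and -0.0013.

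**Figure D1:**
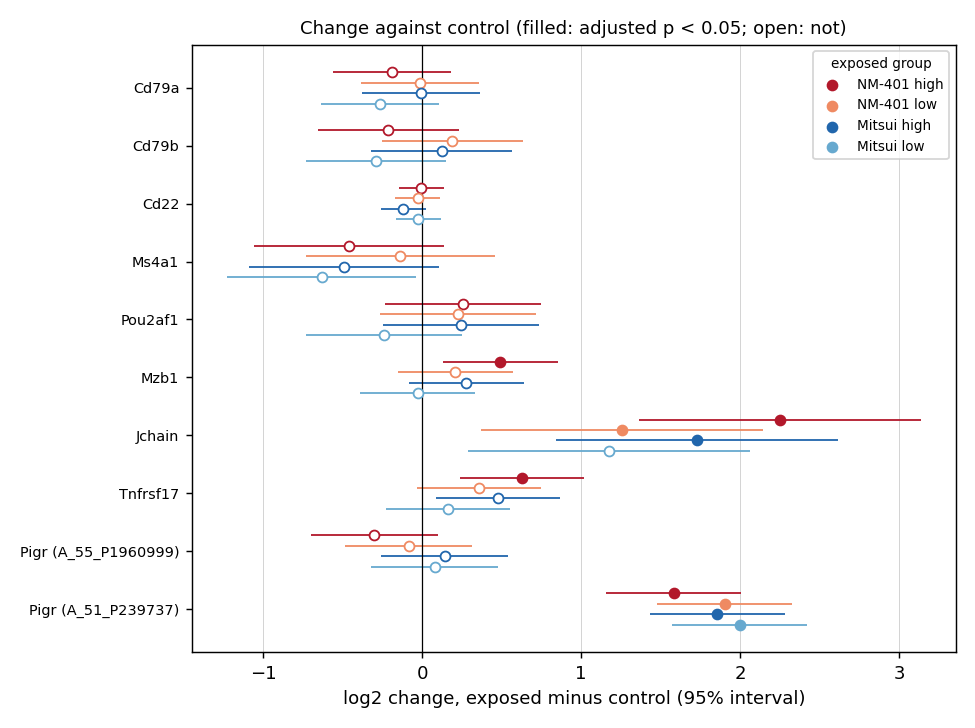
Log2 change of each gene, exposed minus control, with its 95% interval from the linear model (n = 5 per group); the x axis is the log2 change and the rows are genes, with both Pigr probes shown. Filled points have an adjusted p under 0.05; Jchain lies at 1.17 to 2.25 and the Pigr probe A_51_P239737 at 1.58 to 2.00 in the 4 exposures, while the intervals of Cd79a, Cd79b and Cd22 include 0 in each.

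Jchain, which encodes the joining chain of polymeric IgA and IgM, gave the largest differences of the 8 B cell and plasma cell genes. In NM-401 high lungs the 5 log2 ratios were -0.61, 0.58, -1.14, -0.25 and -0.48. In NM-401 low lungs they were -1.75, -1.29, -0.72, -2.18 and -0.92. Mitsui high animals gave -0.75, -1.51, -2.18, 0.34 and -0.40, and Mitsui low animals gave -1.50, -1.63, -2.14, -0.92 and -1.08. The control values were -2.81, -1.08, -2.95, -3.15 and -3.15. Control animal 2 thus stood inside the range of the exposed groups, and the other 4 controls lay below every exposed animal.

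The log2 change of Jchain was 2.25 ± 0.43 (SE, n = 5 per group) in NM-401 high, a 4.75-fold difference, with an adjusted p of 0.00022 by limma. It was 1.73 ± 0.43 in Mitsui high (adjusted p 0.0046), 1.26 ± 0.43 in NM-401 low (adjusted p 0.045) and 1.17 ± 0.43 in Mitsui low (adjusted p 0.054). All 5 animals of each exposed group lay above the control mean. Control animal 2 moved these values: without it the changes were 2.64 in NM-401 high (limma adjusted p 2.1e-05), 2.11 in Mitsui high (0.00057), 1.64 in NM-401 low (0.0073) and 1.56 in Mitsui low (0.0074), and all 4 were called. The NM-401 low call was lost on leaving out any of 13 of the 25 animals in turn, with adjusted p between 0.050 and 0.11. With slide as a block the NM-401 low change was 1.09 and no longer called (limma adjusted p 0.063), and the Mitsui low change was 1.19 and called (0.039).

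Control animal 2 also had the highest value of the 5 controls for 6 of the 9 genes, and control animal 4 the lowest for 6 of 9. The mean log2 ratio of 16 T cell genes listed as markers ran between -0.03 and 0.50 in NM-401 high, -0.17 and 0.33 in NM-401 low, -0.15 and 0.25 in Mitsui high and -0.10 and 0.29 in Mitsui low. In control animals 1 and 2 it was 0.40 and 0.41, against -0.20 to -0.09 in the other 3 controls. The part of lymphocyte content in the Jchain values was not tested. Slide was taken up as a block in an alternative fit, given above, in which slide 2 had control animal 2 as its only control. Within slides 1, 3 and 4, each exposed group lay above that slide's controls for Jchain, by 0.77 to 2.79 on the log2 scale. On slide 2, whose 1 control was animal 2, Mitsui high lay 0.87 above it, Mitsui low 0.16 above it and NM-401 low at a difference of -0.44.

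Tnfrsf17, the gene of the BCMA receptor, was dim. It was well above background in 5 of 5 NM-401 high, 5 of 5 NM-401 low, 4 of 5 Mitsui high, 4 of 5 Mitsui low and 3 of 5 control animals. Its log2 ratios were -0.77, 0.03, -0.47, -0.10 and -0.06 in NM-401 high, against -0.79, -0.54, -1.36, -0.94 and -0.87 in control. In NM-401 low they were -0.56, -0.65, 0.06, -0.79 and -0.75, in Mitsui high -0.24, -0.50, -1.0, -0.15 and -0.22, and in Mitsui low -0.81, -1.0, -0.92, -0.45 and -0.49. All 5 NM-401 high animals lay above the control mean, but the ranges of the groups overlapped. The change was 0.63 ± 0.19 in NM-401 high (limma adjusted p 0.012, n = 5 per group), and the change of 0.48 ± 0.19 in Mitsui high was not called (adjusted p 0.070). In NM-401 low it was 0.36 ± 0.19 (adjusted p 0.21) and in Mitsui low 0.16 ± 0.19 (adjusted p 0.60). Without control animal 2, Mitsui high was called at 0.57 (limma adjusted p 0.042), and it was called as well on leaving out Mitsui high animal 3, at 0.62 (0.016), or NM-401 low animal 3, at 0.48 (0.047). With slide as a block it was called at 0.44 (limma adjusted p 0.039). The size of the Tnfrsf17 change depended on the processing. Over the 11 alternatives that keep every animal it ran between 0.59 and 1.46 in NM-401 high, called in 10. In Mitsui high it ran between 0.40 and 0.90, called in 1.

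Mzb1, whose product assists antibody folding, was read from 10 spots of 1 probe on each array, with a median SD between spots of 0.07 on the log2 scale. NM-401 high animals gave -3.12, -2.56, -3.03, -2.38 and -2.82, against -3.34, -2.58, -3.51, -3.61 and -3.32 in control animals. The NM-401 high animals were all above the control mean, and control animal 2 was again the highest control. The change was 0.49 ± 0.17 in NM-401 high (limma adjusted p 0.031, n = 5 per group). This call did not survive leaving out NM-401 high animal 2 or 4 or control animal 1, 3, 4 or 5, with adjusted p between 0.056 and 0.099. NM-401 low values ran between -3.31 and -2.83, Mitsui high values between -3.39 and -2.46 and Mitsui low values between -3.48 and -3.16. The changes of 0.28 in Mitsui high (adjusted p 0.27), 0.21 in NM-401 low (0.47) and -0.03 in Mitsui low (0.94) were not called, and without control animal 2 Mitsui high was called at 0.45 (limma adjusted p 0.039).

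Pou2af1, the co-activator gene, was not called in any exposure. Its log2 ratios were -2.50, -1.75, -2.05, -1.37 and -1.95 in NM-401 high, -1.92, -2.02, -1.98, -2.13 and -1.72 in NM-401 low, -1.93, -1.80, -2.41, -1.51 and -2.02 in Mitsui high and -2.29, -2.59, -2.45, -2.31 and -2.48 in Mitsui low, against -1.89, -1.34, -2.72, -3.09 and -1.87 in control. The SD was 0.13 to 0.42 in the exposed groups and 0.71 in control. The changes were 0.25 ± 0.24 in NM-401 high, 0.23 ± 0.24 in NM-401 low, 0.25 ± 0.24 in Mitsui high and -0.24 ± 0.24 in Mitsui low (SE, n = 5 per group), with limma adjusted p between 0.45 and 0.58.

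**Figure D2:**
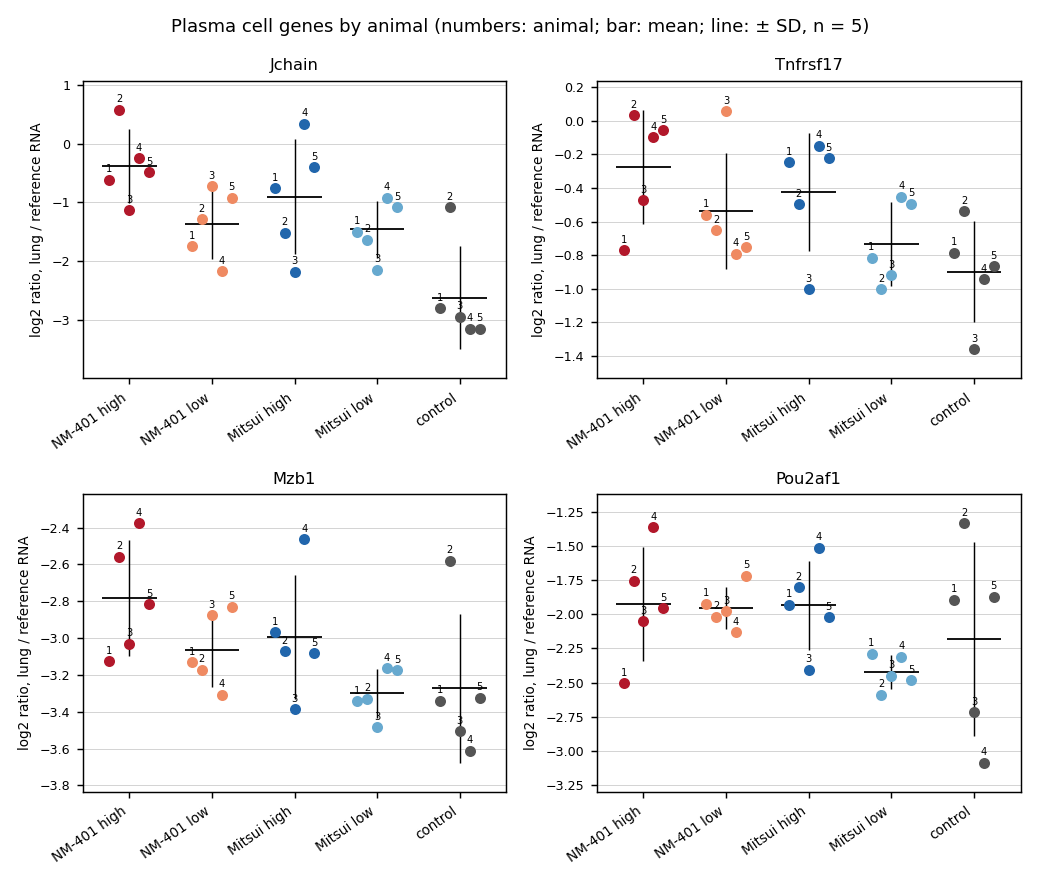
Log2 ratio of lung over reference RNA (y axis) for Jchain, Tnfrsf17, Mzb1 and Pou2af1 in each animal of the 5 groups (x axis); points are animals, numbered, with the mean as a bar and ± SD as a line (n = 5). Control animal 2 is the highest control in each panel, at -1.08 for Jchain, and for Jchain the other 4 controls, at -3.15 to -2.81, lie below every exposed animal.

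None of the B cell genes Cd79a, Cd79b, Cd22 and Ms4a1 was called in any exposure. Of all features, 34.8%, 16.9%, 23.8% and 21% were called in either direction in NM-401 high, NM-401 low, Mitsui high and Mitsui low. The ranges of each exposed group overlapped those of the controls, as they did for Jchain, Tnfrsf17 and Mzb1. For Cd79a, the alpha signalling chain of the B cell receptor, animals 1 to 5 of NM-401 high gave 0.60, 0.83, 0.81, 1.48 and 0.83, against 0.90, 1.37, 0.89, 0.94 and 1.41 in control. NM-401 low ran between 0.81 and 1.36, Mitsui high between 0.44 and 1.46 and Mitsui low between 0.49 and 1.00. The changes lay between -0.26 (Mitsui low) and -0.00 (Mitsui high), with limma adjusted p between 0.33 and 0.99. The reference channel of this probe was well above background in 6 of 25 animals, so its ratio rests on a dim denominator.

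Cd79b, the beta chain, had 0.42, 0.35, 0.33, 0.87 and 0.27 in NM-401 high and 0.45, 0.55, 0.31, 0.23 and 0.31 in Mitsui low. The values were 1.01, 0.64, 0.60, 0.61 and 1.40 in NM-401 low and 0.87, 0.85, 0.89, 1.02 and 0.30 in Mitsui high. Controls spread further than any exposed group, at 0.81, 1.12, 0.47, -0.32 and 1.23. The changes were -0.21 ± 0.21 in NM-401 high, 0.19 ± 0.21 in NM-401 low, 0.12 ± 0.21 in Mitsui high and -0.29 ± 0.21 in Mitsui low (SE, n = 5 per group; limma adjusted p between 0.38 and 0.73). Control animal 4, the lowest, held back 2 calls: without it Cd79b was called lower in NM-401 high, at -0.46 (limma adjusted p 0.048), and in Mitsui low, at -0.54 (0.033).

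The log2 ratios of Ms4a1, the CD20 gene, were -0.46, 0.15, -0.06, 0.70 and -0.31 in NM-401 high, 0.44, 0.04, 0.19, 0.27 and 0.70 in NM-401 low, 0.10, 0.20, -0.05, 0.34 and -0.74 in Mitsui high and 0.09, -0.18, 0.05, -0.39 and -0.41 in Mitsui low. Controls were more spread, at 0.70, 1.33, -0.19, -0.64 and 1.11, an SD of 0.85. Each exposed mean was lower than the control mean, by a log2 change of -0.46 ± 0.29 in NM-401 high, -0.14 ± 0.29 in NM-401 low, -0.49 ± 0.29 in Mitsui high and -0.63 ± 0.29 in Mitsui low (SE, n = 5 per group). The limma adjusted p was between 0.13 and 0.81, and the 95% interval in Mitsui low ran from -1.23 to -0.04. Without control animal 4, Ms4a1 was called lower in NM-401 high (-0.73, limma adjusted p 0.035), Mitsui high (-0.77, 0.038) and Mitsui low (-0.91, 0.017). No such call arose on leaving out any other animal.

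Cd22, the inhibitory co-receptor, had the narrowest spread of the 9 genes. Its ratios ran between 0.06 and 0.36 in NM-401 high, 0.10 and 0.32 in NM-401 low, -0.01 and 0.22 in Mitsui high and 0.05 and 0.34 in Mitsui low, against 0.16 and 0.36 in control. The changes were -0.00 in NM-401 high, -0.03 in NM-401 low, -0.12 in Mitsui high and -0.02 in Mitsui low, each with an SE of 0.07 (limma adjusted p between 0.22 and 0.97, n = 5 per group). The 95% interval in NM-401 high ran from -0.14 to 0.14.

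**Figure D3:**
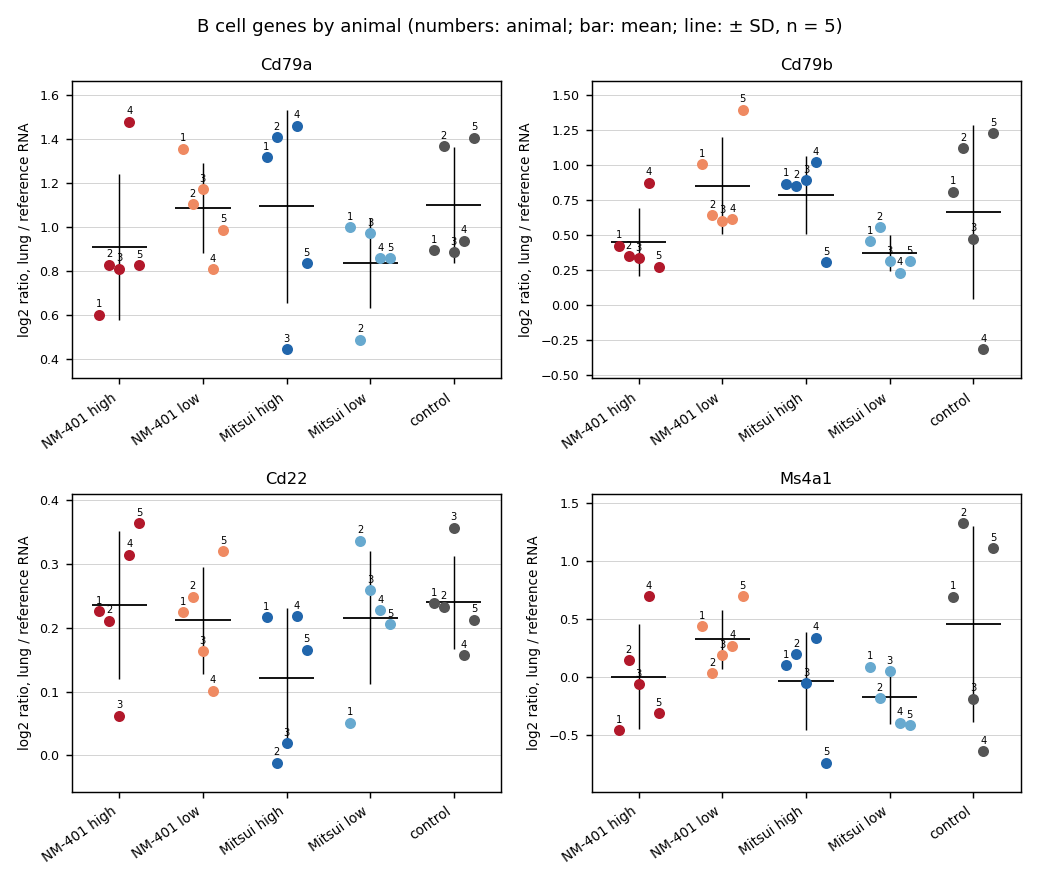
Log2 ratio of lung over reference RNA (y axis) for Cd79a, Cd79b, Cd22 and Ms4a1 in each animal of the 5 groups (x axis); points are numbered animals, bars means and lines ± SD (n = 5). Controls span -0.64 to 1.33 for Ms4a1 and -0.32 to 1.23 for Cd79b, and each exposed group overlaps them.

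The 2 Pigr probes, both assigned to the same RefSeq transcript, differed. The probe A_51_P239737 rose in all 4 exposures, while A_55_P1960999, which had the higher mean intensity and therefore stood for the gene, was not called in any. With A_51_P239737, log2 ratios were 3.70, 4.57, 3.85, 4.10 and 3.85 in NM-401 high, 4.22, 4.75, 4.27, 3.90 and 4.51 in NM-401 low, 4.40, 4.39, 3.78, 4.46 and 4.41 in Mitsui high and 4.54, 4.05, 4.43, 4.80 and 4.30 in Mitsui low. The controls gave 2.27, 2.02, 2.89, 2.99 and 1.98. Every exposed animal lay above every control animal. The share of all probes that separate the groups in this way was not counted.

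With each probe tested on its own, over 30466 probes, A_51_P239737 had a log2 change of 1.58 ± 0.20 in NM-401 high (limma adjusted p 2.2e-06), 1.90 ± 0.20 in NM-401 low (1.8e-06), 1.86 ± 0.20 in Mitsui high (1e-06) and 2.00 ± 0.20 in Mitsui low (4.9e-07), which are 2.99-, 3.73-, 3.62- and 3.99-fold (SE, n = 5 per group). Of all probes, 17%, 7.79%, 11.2% and 9.42% were called higher in these comparisons. This test of the second probe was chosen after its values were known. The lung signal of this probe moved as the ratio did: its mean log2 Cy5 signal was 10.58 in NM-401 high, 11.03 in NM-401 low, 10.79 in Mitsui high and 11 in Mitsui low, against 8.80 in control. It was well above background in lung RNA of all 25 animals, but the reference channel was so in 2 of 5 NM-401 high, 5 of 5 NM-401 low, 3 of 5 Mitsui high, 2 of 5 Mitsui low and 0 of 5 control animals. The size of its ratio therefore depends on how background is treated. With the ratios of Agilent Feature Extraction the changes were 0.78, 0.65, 0.92 and 1.1 in NM-401 high, NM-401 low, Mitsui high and Mitsui low, and the one in NM-401 low was not called (limma adjusted p 0.095). Within each slide the exposed groups lay above the controls, by 0.81 to 2.78.

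With A_55_P1960999, NM-401 high animals gave 0.76, 0.93, 0.33, 0.48 and 0.34, against 0.82, 1.21, 0.87, 0.89 and 0.55 in control. NM-401 low ran between 0.11 and 1.47, Mitsui high between 0.83 and 1.16 and Mitsui low between 0.55 and 1.24. The groups overlapped, with changes of -0.30 ± 0.19 in NM-401 high, -0.08 ± 0.19 in NM-401 low, 0.14 ± 0.19 in Mitsui high and 0.08 ± 0.19 in Mitsui low (SE, n = 5 per group; limma adjusted p between 0.25 and 0.83). Both channels of this probe were well above background in 25 of 25 animals. With the mean of both probes, Pigr was called higher in all 4 exposures, at 0.64 in NM-401 high (limma adjusted p 0.0041), 0.91 in NM-401 low (0.00065), 1.00 in Mitsui high (0.00014) and 1.04 in Mitsui low (0.00011). Which part of the transcript each probe reads was not analysed here.

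The 2 probes also differed in the genes they tracked over the 25 animals. The 5 named genes nearest to A_51_P239737 were Cxcl17, Tmc5, Ppp1r16a, Aoc1 and Neurl1a, with Pearson r between 0.91 and 0.92. For deviations from group means their r was 0.69, 0.55, 0.45, 0.79 and 0.71. Cxcl17 encodes a mucosal chemokine. The 5 nearest to A_55_P1960999 were Dcc, Rhox8, Gcm1, Gab3 and Ermn, with r between 0.93 and 0.99, both over all animals and for deviations from group means. For deviations its r was 0.99 with Dcc, 0.98 with Rhox8 and 0.97 with Gcm1, against 0.37 with the other Pigr probe. These correlations describe 25 animals that share groups and slides, and no test was made of them. Whether A_55_P1960999 reads Pigr was not tested either. The gene counts and medians in which this probe stood for Pigr carry that limit.

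**Figure D4:**
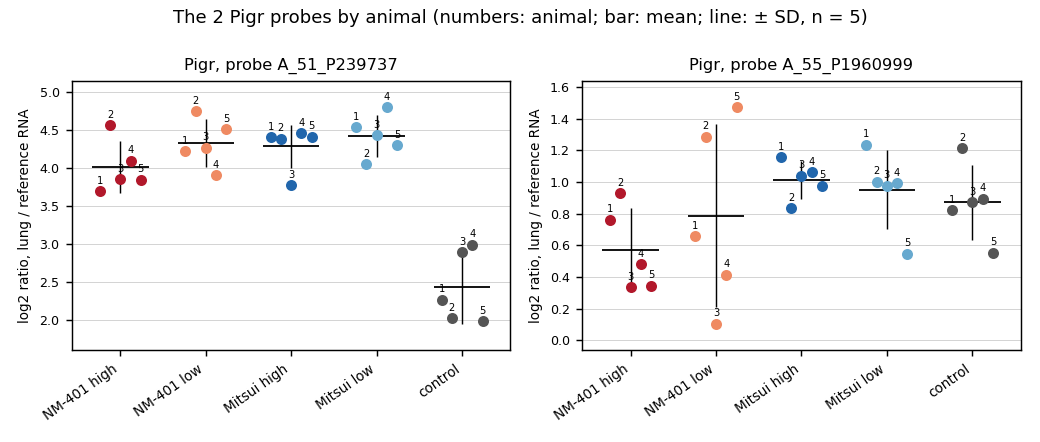
Log2 ratio of lung over reference RNA (y axis) for the 2 Pigr probes in each animal of the 5 groups (x axis); points are numbered animals, bars means and lines ± SD (n = 5). With A_51_P239737 the exposed animals span 3.70 to 4.80 and the controls 1.98 to 2.99, whereas with A_55_P1960999 the groups overlap.

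Airway and secretory epithelium is the tissue that makes the receptor. Of 13 of its genes tested, 9 rose and 1 fell in NM-401 high, where 18.4% of all features were called higher and 16.4% lower. In NM-401 low 7 rose, in Mitsui high 9 and in Mitsui low 8, with none lower. In those 3 groups 8.95%, 12.7% and 10.6% of all features were called higher, and 7.98%, 11.1% and 10.4% lower. The median log2 change of the 13 genes was 1.71 in NM-401 high, 1.00 in NM-401 low, 1.33 in Mitsui high and 1.3 in Mitsui low. Muc5b, a gel-forming mucin of airway secretory cells, rose by 3.61 in NM-401 high (limma adjusted p 4.7e-10) and by 3.16 to 3.53 in the other groups. Ltf, the antimicrobial lactoferrin, rose by 3.48 in NM-401 high, and Scgb3a1, a secretoglobin of airway epithelium, by 2.32. Reg3g, an antibacterial lectin, rose by 2.44 in NM-401 high (limma adjusted p 0.019) and had adjusted p between 0.054 and 0.25 elsewhere. The club cell genes Cyp2f2 and Scgb1a1, named after their values were seen, were called higher in no exposure. In NM-401 high Cyp2f2 fell by 0.46 (limma adjusted p 0.035), and Scgb1a1 was at -0.39 (adjusted p 0.21). The mean log2 ratio of the 13 genes ran between 4.11 and 4.96 in NM-401 high, 3.35 and 4.35 in NM-401 low, 3.79 and 4.59 in Mitsui high and 3.90 and 4.65 in Mitsui low, against 2.62 and 3.35 in control. The part of these epithelial genes in the Pigr result was not tested.

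The comparisons with control share the 5 control animals. Between the exposed groups themselves, none of the 9 genes was called. High against low NM-401 had 3.84% of all features called, and Jchain had the smallest unadjusted p of the 9 genes there, with a log2 difference of 0.99 ± 0.43 (95% interval 0.11 to 1.88, limma adjusted p 0.21). The 5 NM-401 high animals all lay above the NM-401 low mean, and the groups overlapped. For high against low Mitsui the Jchain difference was 0.55 (interval -0.33 to 1.44), for NM-401 high against Mitsui high 0.52 (-0.36 to 1.41) and for NM-401 low against Mitsui low 0.08 (-0.80 to 0.97). Of all features, 0% were called in high against low Mitsui, 0.789% in NM-401 high against Mitsui high and 0% in NM-401 low against Mitsui low.

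The dose step of Jchain differed between the materials by 0.44, with a 95% interval from -0.81 to 1.69, and 0.0349% of all features were called in that interaction (0.0218% higher, 0.0131% lower). Its smallest unadjusted p among the 9 genes belonged to Cd79b, whose step differed by -0.82 (interval -1.44 to -0.19, limma adjusted p 0.25). At the low dose, Cd79b was higher in each NM-401 animal than in any Mitsui animal, by 0.48 on average (limma adjusted p 0.87). The same held for Pou2af1, by 0.47 (limma adjusted p 0.88). The share of all features separated in this way was not counted. Pigr read by A_55_P1960999 was lower in NM-401 high than in Mitsui high by a log2 difference of -0.44 (limma adjusted p 0.23), and A_51_P239737 differed by -0.28 (interval -0.70 to 0.15). Its difference between doses was -0.32 for NM-401 (interval -0.74 to 0.10) and -0.14 for Mitsui (-0.56 to 0.28). At unadjusted p under 0.05, 1 of the 9 genes passed in each of high against low NM-401, NM-401 low against Mitsui low, NM-401 high against Mitsui high and the interaction, where 4196, 1286, 3963 and 2923 of the 22950 features did. In high against low Mitsui 0 of the 9 passed, where 1246 features did.

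Some of the 9 genes moved together from animal to animal, given here as correlations of deviations from group means over 25 animals that share slides. Ms4a1 followed Cd79b (Pearson r 0.89) and Pou2af1 (0.86). Jchain followed Mzb1 (0.87) and Tnfrsf17 (0.73), and followed Ms4a1 (0.25) and Cd79b (0.19) less closely. Mzb1 had an r of 0.84 with Pou2af1 and 0.62 with Ms4a1. Pou2af1, grouped here with the plasma cell genes, had an r of 0.72 with Cd79b, 0.68 with Cd79a and 0.17 with Cd22. With Jchain its r was 0.59 and with Tnfrsf17 0.58. Cd22 and Tnfrsf17 were read by dim probes. Cd22 had an r of 0.02 to 0.22 with the other B cell genes, and Tnfrsf17 one of 0.0019 with Cd79b. Pigr, read by A_55_P1960999, had an r between -0.24 and 0.29 with the other 8 genes.

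The mean of the 4 B cell genes was most like Cxcr5, the receptor that guides B cells to follicles, with a Pearson r of 0.87 over 25 animals. Fcmr, the IgM receptor of B cells, Spib, Bcl11a and Ralgps2 followed at 0.81 to 0.83. For deviations from group means the r of these 5 was 0.78 to 0.84. The mean of the 4 plasma cell genes was most like Fcho1, Ssbp1, Slc22a4, Arhgap9 and Fap, with r between 0.79 and 0.80. For deviations from group means the r was 0.60 to 0.67.

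Of 19 further B cell genes tested, 6 rose and 3 fell in NM-401 high, where 18.4% of all features were called higher and 16.4% lower. The counts higher and lower were 5 and 2 in NM-401 low (all features 8.95% and 7.98%). They were 7 and 2 in Mitsui high (12.7% and 11.1%) and 5 and 4 in Mitsui low (10.6% and 10.4%). The median log2 changes were -0.02 in NM-401 high, 0.05 in NM-401 low, 0.06 in Mitsui high and -0.11 in Mitsui low. The largest rises in NM-401 high were Cd72 at 1.68, Blnk at 1.45, Ly86 at 1.45 and Fcer2a at 1.29 (limma adjusted p between 1.2e-05 and 4.5e-05), and all 4 were called in each exposure. Cd72 encodes an inhibitory receptor, Blnk an adaptor of the B cell receptor, Ly86 the partner of the Toll-like receptor homologue RP105, and Fcer2a the low-affinity IgE receptor. Blnk, Ly86 and Cd72 are also expressed by myeloid cells. Pax5, a master regulator of B cell identity, had a log2 change of -0.13 in NM-401 high and was not called (limma adjusted p 0.40). The 3 that fell in NM-401 high were Ebf1 at -0.69, Swap70 at -0.68 and Bach2 at -0.53. Pax5 and these 3 were picked out after their values were seen.

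Macrophage genes, listed as markers of the cells that also express some of these, rose for 4 and fell for 1 of 9 in NM-401 high. There, 18.4% of all features were called higher and 16.4% lower. The counts higher and lower were 3 and 0 in NM-401 low (all features 8.95% and 7.98%). They were 2 and 1 in Mitsui high (12.7% and 11.1%) and 3 and 1 in Mitsui low (10.6% and 10.4%). Adgre1, which encodes the macrophage marker F4/80, rose by 1.92, Itgax by 1.55 and Mrc1 by 0.77, while Siglecf, the marker of alveolar macrophages, fell by 0.88. Adgre1 and Itgax were called in all 4 exposures. The mean log2 ratio of the 9 genes ran between 3.60 and 4.36 in NM-401 high, 3.76 and 4.24 in NM-401 low, 3.86 and 4.20 in Mitsui high and 3.92 and 4.44 in Mitsui low, against 3.55 and 3.80 in control. The part of macrophages in the rises of Blnk, Ly86 and Cd72 was not tested.

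On a wider list of plasma cell and secretory pathway genes, of 19 tested, 11 rose and 2 fell in NM-401 high (median log2 change 0.39). There, 18.4% of all features were called higher and 16.4% lower. In NM-401 low 3 rose and 2 fell (median 0.09; all features 8.95% and 7.98%). In Mitsui high 11 rose and 1 fell (0.26; 12.7% and 11.1%), and in Mitsui low 9 and 2 (0.22; 10.6% and 10.4%). Slamf7, a surface receptor of plasma cells that macrophages carry too, rose by 1.84 in NM-401 high (limma adjusted p 7.9e-06). Sdf2l1, an endoplasmic reticulum chaperone partner, rose by 0.96, Derl3, part of the machinery that removes misfolded proteins, by 0.93, and Sec11c, a signal peptidase subunit, by 0.73. The 2 that fell in NM-401 high, named after their values were seen, were Tent5c at -0.71, which encodes a poly(A) polymerase active in plasma cells and was called lower in all 4 exposures, and Herpud1, a stress gene of the endoplasmic reticulum, at -0.37. These secretory genes are not restricted to plasma cells. The plasma cell regulators Prdm1, Xbp1 and Irf4, looked at for their role after values were seen, had log2 changes of -0.19, 0.12 and 0.15 in NM-401 high and were not called (adjusted p between 0.13 and 0.41). High against low NM-401 gave 9 of the 19 higher and 0 lower, where 2.68% of all features were called higher.

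Among factors that support B cells, Il6, a cytokine that aids plasma cells, rose by 2.16 in NM-401 high (limma adjusted p 4e-08), by 1.34 in NM-401 low, by 1.15 in Mitsui high and by 1.2 in Mitsui low. Tnfsf13b, which encodes the survival factor BAFF, a ligand of the receptor encoded by Tnfrsf17, rose by 0.54, 0.67, 0.44 and 0.51 in NM-401 high, NM-401 low, Mitsui high and Mitsui low. Tgfb1, whose product directs class switching to IgA, rose by 0.49 in NM-401 high. In all, 3 of 6 such genes rose in NM-401 high, 2 in NM-401 low, 3 in Mitsui high and 3 in Mitsui low, where 1 also fell. Of all features, 18.4%, 8.95%, 12.7% and 10.6% were called higher in these groups, and 10.4% lower in Mitsui low.

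The 12 lymphoid and mucosal homing chemokines and receptors tested gave 0 calls in any exposure. In either direction, 34.8%, 16.9%, 23.8% and 21% of all features were called in NM-401 high, NM-401 low, Mitsui high and Mitsui low. The smallest p in NM-401 high was that of Ccr9, a gut-homing receptor, with a change of 0.42 (limma adjusted p 0.095). On the germinal centre list, 3 of 7 genes rose and 1 fell in NM-401 high, where 18.4% of all features were called higher and 16.4% lower. Pdcd1 rose by 1.42 and Icos by 1.2, both receptors of follicular helper and other activated T cells, and Fas fell by 0.46. The third riser, Stra6l, at 2.62, is a retinol-binding protein receptor and no germinal centre gene, so its place on that list was a slip. With it left aside, NM-401 low and Mitsui high had Pdcd1 called higher, and Mitsui low had it at 1.13. The gene that fell in Mitsui low was Cxcr5, at -0.48 (limma adjusted p 0.046), and it was not called in NM-401 high (-0.34, adjusted p 0.13). It was named after its value was seen.

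Of 9 Fc receptor and antibody transport genes, 6 rose in NM-401 high and none fell, with a median of 1.81, where 18.4% of all features were called higher. Fcgr3 rose by 2.45, Fcgr2b by 2.09, Fcer1g, the shared signalling chain, by 2.04 and Fcgr1 by 1.99. In NM-401 low 5 rose, in Mitsui high 4 rose and 1 fell, and in Mitsui low 4 rose, against 8.95%, 12.7% and 10.6% of all features higher. In Mitsui high 11.1% of all features were called lower. Fcgr1 was not called in Mitsui high (0.80, limma adjusted p 0.13) or Mitsui low (1.0, 0.058). The gene that fell in Mitsui high was Fcgrt, the neonatal IgG receptor, at -0.28 (adjusted p 0.046), and Fcamr and Fcrl5 were called in no exposure, all 3 picked out after their values were seen. These receptors sit mainly on macrophages and other myeloid cells, and Fcgr2b also on B cells.

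Among markers of other blood and lymphoid cells, of 16 T cell genes, 3 rose in NM-401 high, namely Cd5 at 0.99, Cd6 at 0.79 and Cd4 at 0.31, and 0 were called in the other exposures. That share is close to the 18.4% of all features called higher in NM-401 high. Of 6 natural killer cell genes 1 fell in NM-401 high, Gzma at -0.80, and of 4 thymocyte genes 1 fell, Satb1 at -0.55, where 16.4% of all features were called lower. Neutrophil genes had 0 of 7 called in NM-401 high, with Retnlg at 0.80 (limma adjusted p 0.057), and dendritic cell genes had 1 of 7, Flt3 at 0.46. Of 5 genes of follicular dendritic cells and lymph node stroma 2 rose, Fcer2a, which is on the B cell list too, and Pdpn at 0.45. Of 5 red blood cell genes 2 fell, Slc4a1 at -0.75 and Alas2 at -0.39.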

How the data were processed

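Lung RNA of 25 mice in 5 groups was read on 26 2-colour Agilent arrays, 1 Mitsui low animal on 2 arrays that were averaged. The authors deposited a matrix of log2 ratios, whose method is not given in the sources used here, with column medians between -0.040 and -0.018; over the features kept, its values correlated with those used here at r = 0.997. Per the file headers, the deposited scanner output holds spot and background intensity (median signals were used), log10 ratios from Feature Extraction 11.0.1.1 and flags of another kind (0 or 1) for outlier spots and spots well above background. The files' coordinates are of another build than the reference, so none is printed from them.

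Background was removed with limma 3.58.1 in R 4.3.3 (normexp, offset 50), ratios were normalised by loess, and flagged outlier spots (0.461%) were dropped. Probes well above background in Cy5 in at least 4 animals of 1 group were kept (30466 of 55681), and a gene was read by its kept probe of highest mean intensity, giving 22950 features, 14838 with a symbol from RefSeq identifiers (27235 probes had one). A model with 1 mean per group and empirical Bayes moderation gave p-values, adjusted by Benjamini-Hochberg over all features. In 1 simulation of NM-401 high against control, 200 features were changed, by 1 or by 0.5 in either direction. Of those changed by 1, 94% were called, and of those changed by 0.5, 73%. The simulated noise was independent between features and held no slide effect, so these shares need not hold for the data. The share of probes above background was 45.8% to 62.1% in Cy5 and 46.4% to 64.4% in Cy3, and the number of arrays limits precision. Slide had an effect in 5973 features at an adjusted p under 0.05.

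Named genes are all 9 genes, up to 4 called genes of each list with the largest change in NM-401 high (otherwise the smallest p), and the 5 most correlated genes. Members and lists were chosen with earlier results of these data known. Immunoglobulin locus genes were not analysed here. Alternatives covered centring, background, filter, probe choice, blocks, the variance model, the repeated animal, other deposited ratios and leaving out each animal.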

Additional observations from a re-analysis of the deposited data

Results flagged for a closer look

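In a group of 5, an animal was marked where its gap to the nearest other, divided by the range of the group, exceeded the limit of Dixon's test. Of 50 groups examined, 8 were marked, and chance marks about 1 in 20. Values are log2 ratios of lung over reference.

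Control animal 2 was the highest control for Jchain, at -1.08, and for Mzb1, at -2.58; the Jchain and Mzb1 results without it stand beside those results. NM-401 high animal 4 was the highest of its group for Cd79a, at 1.48, and for Cd79b, at 0.87. Mitsui low animal 2 was the lowest for Cd79a, at 0.49, and Mitsui high animal 5 the lowest for Cd79b, at 0.30. Tnfrsf17 in NM-401 low animal 3, at 0.058, stood above the other 4. With the Pigr probe A_51_P239737, Mitsui high animal 3 was the lowest, at 3.78, and still above every control.

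Pou2af1 was above the control mean in all 5 NM-401 low animals and below it in all 5 Mitsui low animals, though both groups lie inside the control range of -3.09 to -1.34. Neither change was called (0.23, limma adjusted p 0.58, and -0.24, adjusted p 0.53). The difference between the groups was 0.47, with a limma adjusted p of 0.88. Without control animal 4 the NM-401 low change was 0.0010 and the Mitsui low change -0.47.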

How the results depend on the processing

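The number of the 9 genes called was recounted under each alternative. With median centring in place of loess it was 1 in NM-401 high, 0 in NM-401 low and 0 in Mitsui high, against 3, 1 and 1 with loess; all features called then numbered 1065 (89.4% higher) in NM-401 high, 62 (83.9%) in NM-401 low, 121 (86.8%) in Mitsui high and 74 (83.8%) in Mitsui low, against 7979 (52.9%), 3886 (52.9%), 5455 (53.4%) and 4816 (50.4%), and the median of all features shifted to 0.17, -0.11, -0.13 and -0.14. With the mean of all kept probes the count was 2 in NM-401 low, 2 in Mitsui high and 1 in Mitsui low. With slide as a block it was 0 in NM-401 low, where Jchain lost its call, 2 in Mitsui high, where Tnfrsf17 gained one, and 1 in Mitsui low, where Jchain gained one; with Feature Extraction ratios, no filter, or trended and robust moderation it was 0 in NM-401 low; and with the first array only of the repeated animal it was 1 in Mitsui low. Leaving out 1 animal in turn gave 2 to 4 in NM-401 high, 0 to 1 in NM-401 low, 1 to 3 in Mitsui high and 0 to 2 in Mitsui low. With a replicate block the counts were 3 in NM-401 high, 1 in NM-401 low, 1 in Mitsui high and 0 in Mitsui low, and the block changed no call among the 9 genes. Numbers did not pair the animals: of 50 same-numbered pairs, 12 correlated above 0.1 (range -0.38 to 0.41). Comparisons between exposed groups gave 0 calls among the 9 genes under each setting run.

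Jchain stayed called in NM-401 high under all 11 alternatives that keep every animal, with adjusted p between 0.00010 and 0.0072, and under 10 of 11 in Mitsui high. Only differences that were not called, or Pigr with its probes averaged, changed sign, and the cause was not tested.
Against control, Cd79a in NM-401 low became 0.25 with Feature Extraction ratios, 0.031 with the authors' deposited values and 0.047 with no background correction. Median centring gave 0.065 for Cd79b, 0.14 for Cd22 and 0.037 for Pigr in NM-401 high, -0.088 for Cd79b and -0.084 for Pigr in Mitsui high and -0.14 for Pigr in Mitsui low. The mean of both Pigr probes gave 0.64 in NM-401 high and 0.91 in NM-401 low. Slide as a block gave 0.0088 for Cd22 in NM-401 high, 0.00086 for Mzb1 in Mitsui low and -0.10 for Jchain in NM-401 low against Mitsui low. Leaving out 1 animal in turn gave ranges that cross 0: in NM-401 high -0.036 to 0.039 for Cd22; in NM-401 low -0.080 to 0.064 for Cd79a, -0.056 to 0.33 for Cd79b, -0.055 to 0.0012 for Cd22, -0.41 to 0.080 for Ms4a1 and -0.26 to 0.086 for Pigr; in Mitsui high -0.10 to 0.16 for Cd79a and -0.12 to 0.27 for Cd79b; in Mitsui low -0.054 to 0.017 for Cd22, -0.11 to 0.15 for Mzb1 and -0.00029 to 0.18 for Pigr; and -0.089 to 0.28 for Jchain in NM-401 low against Mitsui low.
Counts of all features moved by over 1.5 times in other comparisons too: high against low NM-401 had 882 called, 1553 with slide as a block and 8 with median centring, and NM-401 high against Mitsui high had 181, 508 with slide as a block and 39 with Feature Extraction ratios. Dim signals limit Tnfrsf17 in the lung channel and Cd79a and the Pigr probe A_51_P239737 in the reference channel. The Cd22 probe had a low mean intensity as well. Immunoglobulin genes were not analysed here.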
